A study of Mus musculus with 6 samples.

Results

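The genes studied here are those of heme synthesis: Alas1, Alas2, Alad, Uros, Urod, Cpox, Ppox and Fech, which encode enzymes of the pathway, and Slc25a38, which encodes the mitochondrial glycine carrier. These 9 genes, of 48709 in the count table, were listed by name from the known pathway. All 9 passed the filter on low counts, so that 9 of 12722 genes tested are described. RNA-Seq was performed on G1E-ER4 cells, a mouse erythroid progenitor line derived from embryonic stem cells and transfected with GATA1 fused to the ligand-binding domain of the estrogen receptor (ESR1). Cells of both groups were grown with erythropoietin at 2 U/mL and received a peptide at 10 μM for 2 h and then tamoxifen for 28 h, at 100 nM by the growth protocol and 100 μM by the design text. The CHD4-APR peptide copies an aggregation-prone stretch of the chromatin remodeler CHD4, the CTRL peptide is a run of alanines, and both carry the Tat sequence. Each group had 3 libraries, so every comparison below is between peptides in induced cells of a single line.

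Heme is made from glycine and succinyl-CoA in a chain of enzymes that starts in the mitochondrion, continues in the cytosol and ends in the mitochondrion again. Aminolevulinic acid synthase, the rate-limiting enzyme, exists as the housekeeping form ALAS1 and the erythroid form ALAS2. In maturing red cells GATA1 turns on Alas2 and several later enzymes, and the product is joined to globin chains to make hemoglobin.

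Cpox was the gene of the pathway that rose with the CHD4-APR peptide, by 1.63-fold, whereas Slc25a38, Alad and Uros were 12.4% to 15.0% lower. Alas1, Alas2, Urod, Ppox and Fech did not pass the test. Thus 1 of 9 genes was higher and 3 were lower at an FDR under 0.05, while among all genes 20.4% passed as higher and 17.8% as lower. In all, 4 of 9 passed, against 38.3% of all genes, which is close to the background. The split over all genes was 2601 higher and 2270 lower, but 2959 and 1474 with scaling by total counts alone, and 1500 and 2065 after a correction for exonic length and GC content. The median log2 fold change was -0.12 over the 9 genes and -0.012 over all genes tested. These medians were -0.072 and 0.033 with scaling by total counts alone, and -0.070 and -0.024 after the correction. In 5 of the 9 genes the CHD4-APR and CTRL libraries did not overlap, beside 49.9% of all genes. What set Cpox apart was its size, since 2.77% of the tested genes had a larger log2 fold change.

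**Figure D1:**
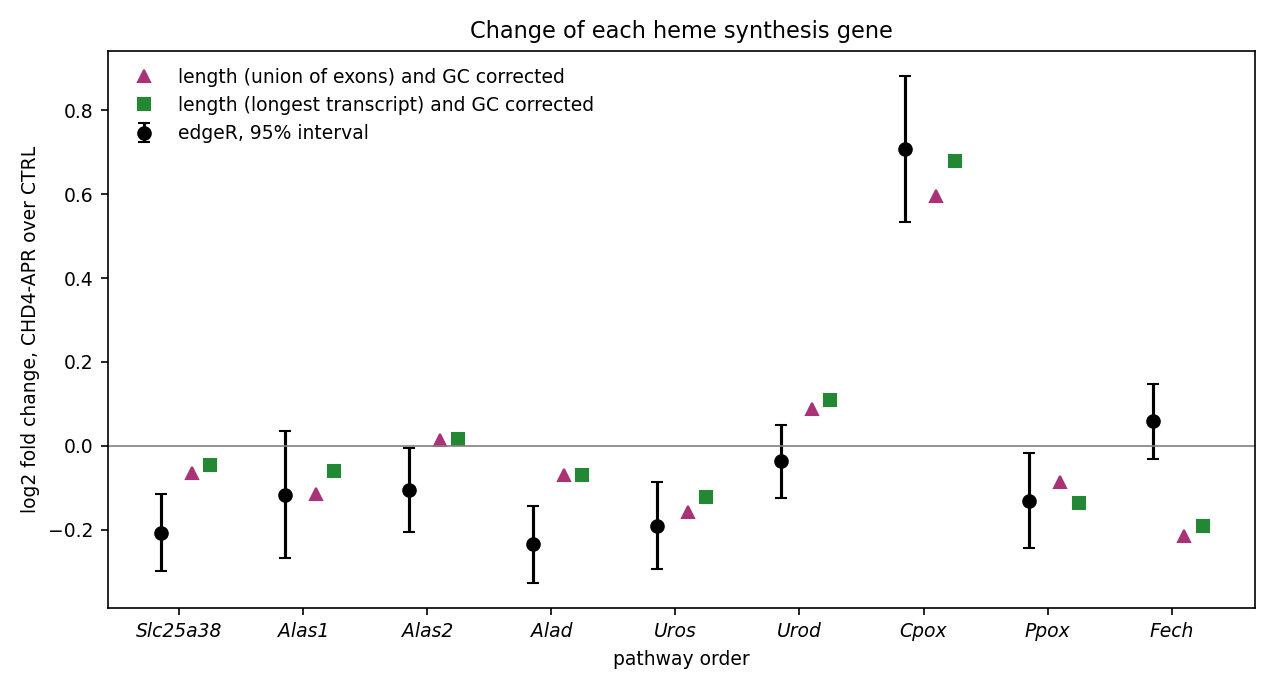
The log2 fold change (CHD4-APR over CTRL, vertical axis) of each gene in pathway order, with the 95% interval from edgeR as black bars and the values after 2 versions of a correction for length and GC content as colored symbols. Cpox lies at 0.71, far above 0 with each method, while Slc25a38 and Alad move closer to 0 after correction (-0.064 and -0.070 with all exons as the length) and Fech crosses from above to below 0.

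The libraries held 41687482 to 49784177 counted reads, and no pair of replicates was a copy of another. The labels do not say that the libraries of a group came from separate cultures, so p-values measure the spread between these libraries, which may be technical. Of 13 erythroid markers, 12 were found and tested, and their summed level was 71266 to 76508 normalized CPM (counts scaled to the size of the library) in CTRL libraries and 60620 to 64695 in CHD4-APR libraries, most of it hemoglobin. All 7 megakaryocyte markers together had 47.6 to 50.2 and 41.2 to 46.8 normalized CPM, with Gp1bb and Ppbp at 0. The 7 myeloid markers had 182 to 211 and 166 to 167, nearly all from Spi1, with Mpo at 0. Mast cell and lymphoid markers each summed to at most 1.32 normalized CPM in every library. The sums for the erythroid, megakaryocyte and myeloid lists were lower with the CHD4-APR peptide, and their part in the changes below was not tested. In bulk RNA, fewer cells of a type and less RNA per cell cannot be told apart.

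The promoters of Cpox, Alas2 and Alad are shown because these are the gene with the largest change, the erythroid form of the rate-limiting enzyme and the most abundant transcript of the pathway. RefSeq gave 11 promoters for 8 of the 9 genes. The 250 bases before each start site were searched on both strands for a GATA motif (AGATAA or AGATAG, and likewise TGATAA or TGATAG) and for a KLF motif (CCNCACCC), the kinds of sequence that GATA1 and KLF1 recognize. Capitals mark the matches. The Cpox stretch lies at chr16:58669958-58670207 on the plus strand, that of Alas2 at chrX:150547167-150547416 on the plus strand, and that of Alad at chr4:62519910-62520159 on the minus strand (GRCm38.p6, sequences 5′ to 3′ in the direction of the gene).
Cpox: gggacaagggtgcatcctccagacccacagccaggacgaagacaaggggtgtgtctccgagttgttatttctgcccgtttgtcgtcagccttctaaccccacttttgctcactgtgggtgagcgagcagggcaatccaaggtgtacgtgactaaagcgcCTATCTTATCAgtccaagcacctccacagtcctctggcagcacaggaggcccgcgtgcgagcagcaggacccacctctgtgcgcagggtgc
Alas2: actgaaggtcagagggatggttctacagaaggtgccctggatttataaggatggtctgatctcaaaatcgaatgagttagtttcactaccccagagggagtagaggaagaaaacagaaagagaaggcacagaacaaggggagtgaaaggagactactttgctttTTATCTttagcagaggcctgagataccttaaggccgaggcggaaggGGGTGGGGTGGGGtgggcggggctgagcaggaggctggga
Alad: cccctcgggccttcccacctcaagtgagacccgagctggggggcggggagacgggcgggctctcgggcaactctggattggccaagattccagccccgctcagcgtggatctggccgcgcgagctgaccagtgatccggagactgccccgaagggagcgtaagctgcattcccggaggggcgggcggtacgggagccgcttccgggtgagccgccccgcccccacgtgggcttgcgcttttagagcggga

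The Cpox promoter held 2 GATA matches on the minus strand, 91 to 86 and 86 to 81 bases before the start site, which share a base. The Alas2 promoter held 1 GATA match, 86 to 81 bases before the start, and 2 KLF matches that overlap, at 40 to 33 and 35 to 28 bases. At the start sites given for Alad neither motif was found. Of the 11 promoters, 3 held a GATA match, namely those of Alas2, Cpox and the second start site of Uros, and 3 held a KLF match, at Alas2 and at both start sites of Alas1. Among all 32851 promoters of this length 26.5% held the GATA motif and 14.9% the KLF motif, and a match does not show binding.

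The carrier and the enzymes of the entry step are described first. Slc25a38 brings glycine into the mitochondrion and lies on chromosome 9 from 120110374 to 120124504 (GRCm38). With the CTRL peptide it had 227, 238 and 226 normalized CPM, and the CHD4-APR libraries had 192, 202 and 204. Each CHD4-APR library was below each CTRL library. The change was -0.21 ± 0.043 on the log2 scale (± standard error) and passed the test in edgeR at an FDR of 0.00135. Corrected for exonic length and GC content, the difference was -0.064 and did not pass (FDR 0.295).

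Alas2 lies on chromosome X from 150547375 to 150570638 and encodes the form of the synthase that serves hemoglobin. Its values were 952, 863 and 893 normalized CPM with the CTRL peptide and 846, 804 and 868 with the CHD4-APR peptide. CHD4-APR replicate 3 lay just above CTRL replicate 2, so the groups overlapped. The log2 fold change of -0.11 (95% interval -0.20 to -0.0059) did not pass after adjustment (FDR 0.0886 by edgeR). Without CTRL replicate 2 it was -0.14 and passed (FDR 0.0367), but it was smaller without CTRL replicate 1 (-0.066, FDR 0.224) or CHD4-APR replicate 2 (-0.072, FDR 0.377). After the correction for length and GC content Alas2 was at 0.015 (FDR 0.814). Exons of Apex2 on the other strand cover 311 of the 2403 exonic bases of Alas2, and the kit does not mark strand. Apex2 had 1815 to 2389 counts, against 40340 for Alas2 in CTRL replicate 1.

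Alas1, the housekeeping form, on chromosome 9 from 106233455 to 106248654, had 14.1, 13.5 and 13.9 normalized CPM in CTRL libraries and 13.0, 12.7 and 12.5 in CHD4-APR libraries. The groups did not overlap, but the log2 fold change of -0.12 (95% interval -0.27 to 0.035) did not pass (FDR 0.219 by edgeR). Alas2 therefore made up nearly all of the synthase reads. Per kilobase of exons, the ratio of Alas2 to Alas1 was 174, 165 and 165 in CTRL libraries and 167, 163 and 178 in CHD4-APR libraries. These ratios overlapped between the peptides, with a mean difference of 0.012 on the log2 scale (two-sided exact permutation test, p = 0.7, where 3 libraries against 3 allow no p below 0.1). With each library left out the difference lay between -0.023 and 0.040. Removal of CTRL replicate 2 or 3 or of CHD4-APR replicate 3 made it negative, and it was 0.13 after the correction for length and GC content (exact permutation p = 0.1).

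**Figure D2:**
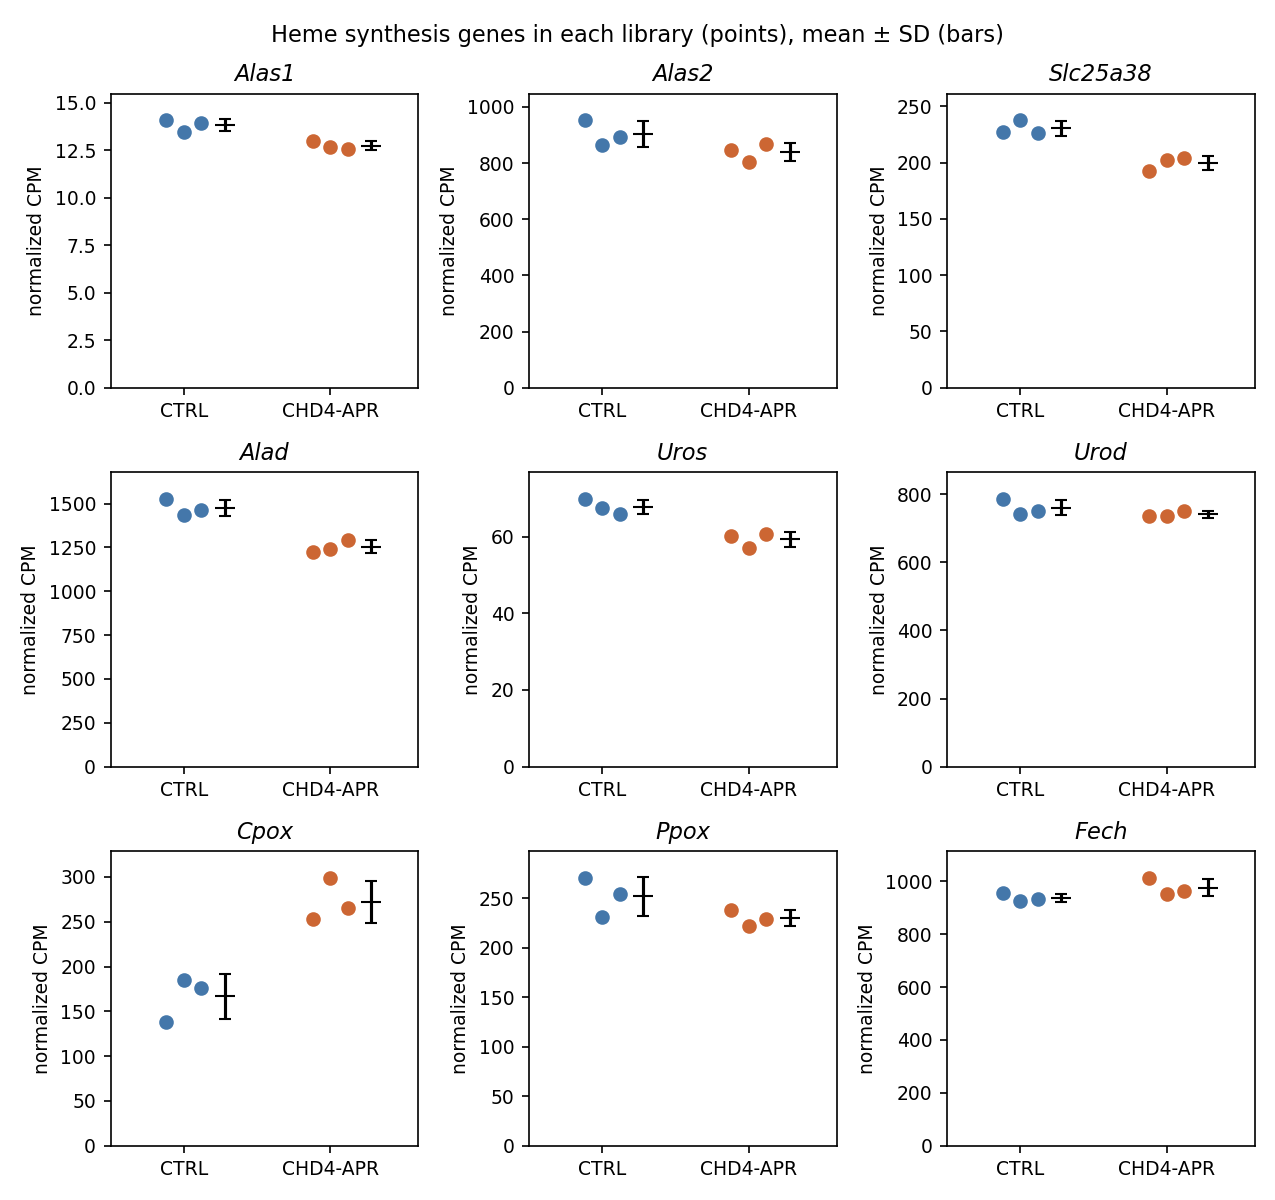
Normalized CPM of each of the 9 genes, with 1 point per library, CTRL in blue and CHD4-APR in orange, and the mean ± SD of 3 libraries as black bars. Only the Cpox panel shows a clear step up (138.5 to 185 against 253 to 299), and the 3 called falls, in Slc25a38, Alad and Uros, are small beside the level of the gene.

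In the cytosol, ALAD condenses aminolevulinic acid to porphobilinogen. Alad, on chromosome 4 from 62509169 to 62519918, had 1525, 1435 and 1465 normalized CPM with the CTRL peptide and 1224, 1241 and 1295 with the CHD4-APR peptide. All CHD4-APR libraries were lower, by the largest fall among the 9 genes, -0.24 ± 0.043 on the log2 scale (± standard error, edgeR FDR 4.71e-04). It passed with each library left out, but not after the correction for length and GC content (log2 fold change -0.070, FDR 0.151).

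UROS closes the linear tetrapyrrole into a ring. The gene, on chromosome 7 from 133686243 to 133710072, was expressed at 69.7, 67.4 and 66.0 normalized CPM in CTRL libraries and 60.1, 57.1 and 60.8 in CHD4-APR libraries. The groups did not overlap, and the change was -0.19 ± 0.049 on the log2 scale (± standard error, edgeR FDR 0.00546). Unlike the other 2 genes that fell, Uros also passed as lower after the correction (-0.16, FDR 0.0104). Without CHD4-APR replicate 2 it missed the threshold (FDR 0.0502).

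Urod encodes the decarboxylase that makes coproporphyrinogen and lies on chromosome 4 from 116989965 to 116994413. Its 785, 743 and 751 normalized CPM in CTRL libraries overlapped with 734, 735 and 752 in CHD4-APR libraries. The log2 fold change was -0.037 (95% interval -0.12 to 0.051, FDR 0.523 by edgeR). On removal of single libraries it ranged from -0.053 to -0.013, and it was 0.0088 with scaling by total counts alone. It was 0.089 after the correction (FDR 0.0575), and with the longest transcript as the length 0.11, which passed as higher (FDR 0.0198).

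Cpox encodes coproporphyrinogen oxidase, the enzyme of the mitochondrial intermembrane space that returns the pathway from the cytosol to the mitochondrion. The gene lies on chromosome 16 from 58670292 to 58717636. CTRL libraries held 138.5, 185 and 176 normalized CPM of its transcript, and CHD4-APR libraries 253, 299 and 265. The lowest CHD4-APR library was well above the highest CTRL library, and the mean rose from 167 ± 24.6 (SD, n = 3) to 272 ± 23.7 (SD, n = 3). On the log2 scale it rose by 0.71, with a standard error of 0.082 and a 95% interval of 0.53 to 0.88 (edgeR FDR 9.08e-06). Among the 9 genes this was the only one past 1.5-fold.

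The spread of Cpox between CTRL libraries was wide. Its coefficient of variation was 14.8% with the CTRL peptide and 8.72% with the CHD4-APR peptide, where the median over 8200 genes with at least 3 log2 CPM was 4.84% and 3.65%. CTRL replicate 1 was the low library, and without it the log2 fold change was 0.59. With each library left out the value lay between 0.59 and 0.79, with an FDR of at most 1.02e-04. It was 0.60 after the correction for length and GC content (FDR 3.17e-05) and 0.68 when the longest transcript gave the length (FDR 2.43e-05). Exons of Gpr15 cover 204 of the 6661 exonic bases of Cpox on the other strand, and Gpr15 had 0 or 1 counts in every library.

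Ratios within a library do not depend on the scaling. The reads of Cpox were 0.177, 0.249 and 0.235 of those of Urod, the step before, in CTRL libraries and 0.344, 0.406 and 0.353 in CHD4-APR libraries. Relative to Ppox, the step after, they were 0.513, 0.801 and 0.692 with the CTRL peptide and 1.06, 1.34 and 1.16 with the CHD4-APR peptide. Neither ratio overlapped between the groups.

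**Figure D3:**
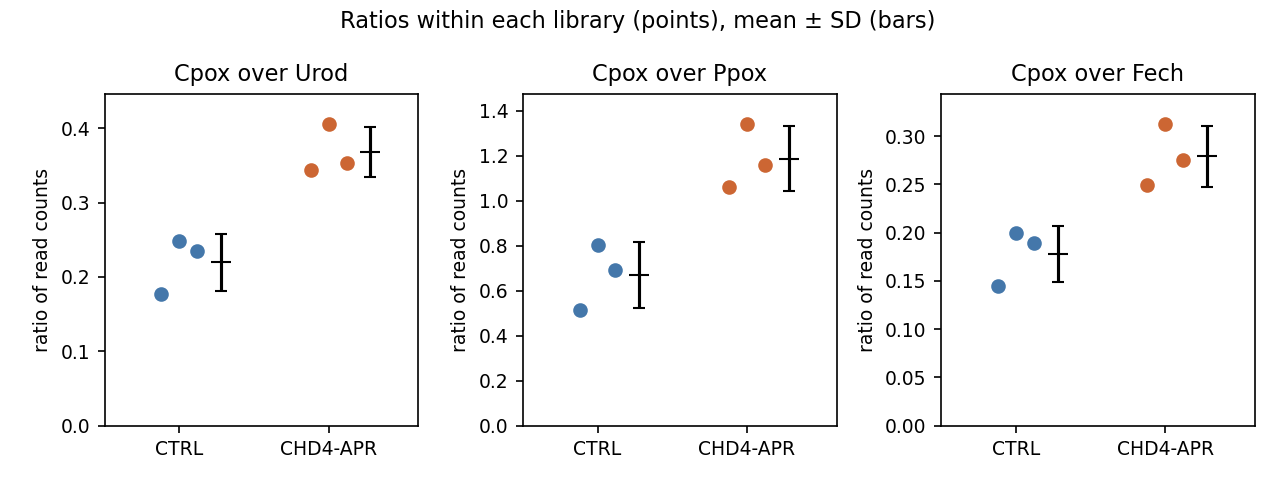
Read counts of Cpox divided by those of Urod, Ppox and Fech within each library (vertical axes, from 0), with 1 point per library and the mean ± SD of 3 libraries as bars. All CHD4-APR points lie above all CTRL points, and for Ppox the ratio passes from below 1 to above 1.

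The last steps showed no call. PPOX oxidizes protoporphyrinogen to protoporphyrin, and Ppox, on chromosome 1 from 171275990 to 171281186, had 270, 231 and 255 normalized CPM in CTRL libraries and 238, 222 and 229 in CHD4-APR libraries. CTRL replicate 2 fell among the CHD4-APR libraries. The log2 fold change of -0.13 (95% interval -0.24 to -0.018) did not pass (FDR 0.0632 by edgeR), but without CTRL replicate 2 it was -0.19 and passed (FDR 0.00476), and without CTRL replicate 1 it was -0.078 (FDR 0.214). It also passed with upper quartile scaling (FDR 0.0383), without the filter on low counts (FDR 0.0329) and with a replicate block (FDR 0.0231). Corrected for length and GC content it did not pass with all exons as the length, but did with the longest transcript (-0.14, FDR 0.0389). Exons of B4galt3 on the other strand cover 17.5% of the exonic bases of Ppox, and B4galt3 had 886 to 1025 counts, against 11446 for Ppox in CTRL replicate 1.

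FECH inserts iron into protoporphyrin, which completes heme. Fech, on chromosome 18 from 64452914 to 64490251, had 956, 925 and 934 normalized CPM with the CTRL peptide and 1012, 954 and 964 with the CHD4-APR peptide. CHD4-APR replicate 2 lay just below CTRL replicate 1. The log2 fold change was 0.058 (95% interval -0.030 to 0.15, FDR 0.299 by edgeR). After the correction for length and GC content the sign changed, to -0.22, and the gene passed as lower (FDR 0.00154). With total counts alone as the scale it was 0.10 and passed as higher (FDR 0.0479). The exons of Fech together span 13838 bases, more than those of any other of the 9 genes, and its GC content of 46.0% was the lowest.

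The GC content of the longest transcript was 47.7% for Cpox, between 50.3% and 56.2% for the 3 genes that fell, and 49.6% for the median tested gene. After the correction Slc25a38 and Alad no longer passed, Fech passed as lower, and Cpox and Uros kept their calls. The part of length and GC content in these changes was not tested further.

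By place in the cell, 1 of 6 genes with a mitochondrial product was higher and 1 was lower, with a median log2 fold change of -0.11. Of the 3 of these genes with a cytosolic product, 0 were higher and 2 were lower by edgeR's quasi-likelihood test, with a median of -0.19. Beside the 20.4% of all genes that were higher and the 17.8% that were lower, counts over so few genes are a description only.

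Levels of different genes were compared per kilobase of exons. In the CTRL libraries the order was Alad at 788 ± 24.4, Alas2 at 376 ± 18.8, Urod at 293 ± 8.61, Slc25a38 at 83.8 ± 2.31, Fech at 67.8 ± 1.15, Ppox at 55.8 ± 4.42, Cpox at 25.0 ± 3.70, Uros at 18.9 ± 0.529 and Alas1 at 2.24 ± 0.0506 normalized CPM per kilobase (SD, n = 3). No pair of neighbors in this order overlapped. With the CHD4-APR peptide the order was kept, with Urod at 286 ± 3.77, but Slc25a38 at 72.6 ± 2.29 overlapped with Fech at 70.6 ± 2.24. Cpox reached 40.9 ± 3.56, between Ppox at 50.9 ± 1.78 and Uros at 16.6 ± 0.548. Dividing by the longest transcript instead put Cpox at 53.8 and 87.9 and Ppox at 57.1 and 52.1, so that Cpox was then above Ppox with the CHD4-APR peptide. By that length Alas2, at 443 with the CTRL peptide, also came below Urod at 510.04, and Slc25a38 at 129 below Fech at 143. Alad, Alas2 and Urod were above the 98th percentile of all tested genes per kilobase, while Alas1 was at the 33.2 percentile.

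**Figure D4:**
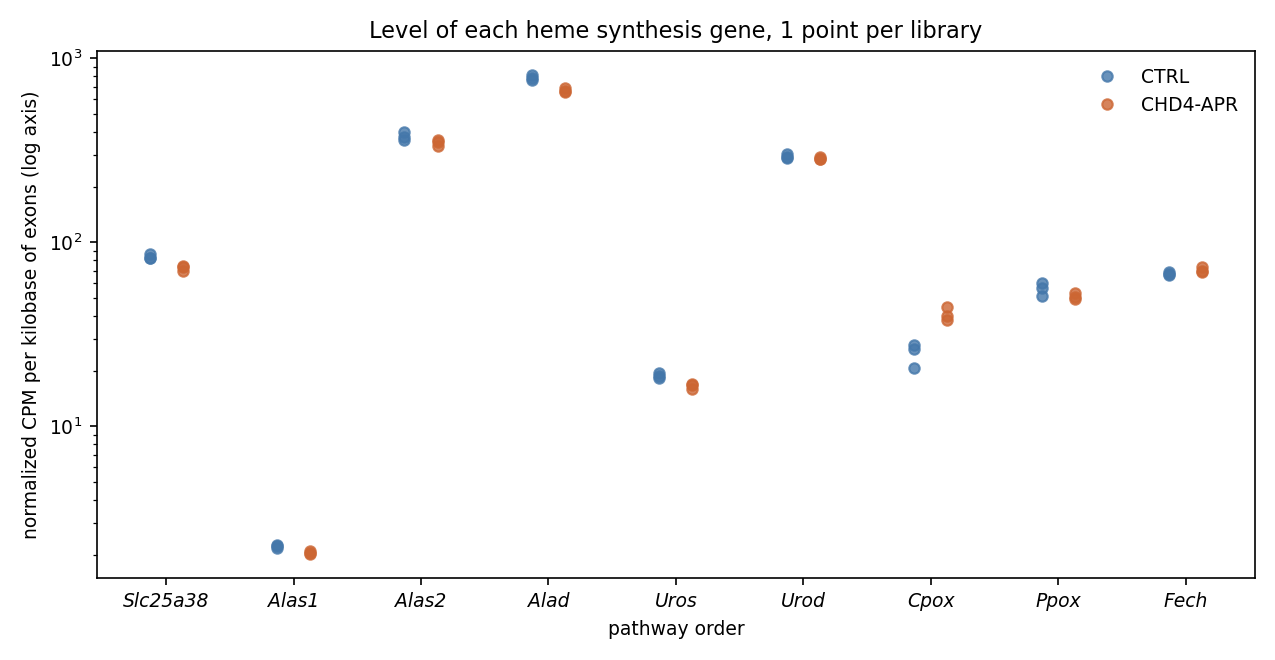
Normalized CPM per kilobase of exons on a log axis, in pathway order, with 1 point per library. The genes span from 2.03 (Alas1) to 815 (Alad), and Cpox is the gene whose orange CHD4-APR points separate visibly upward from the blue CTRL points.

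Patterns over the 6 libraries were compared by Pearson correlation of log2 CPM with 8199 other genes of at least 3 log2 CPM. Closest to Alas2 were Timm44 (0.993), Asb6 (0.992) and Tex45 (0.990), and closest to Alas1 were Mus81 (0.999), Nob1 (0.996) and Tmem131l (0.996). As the points are the same 6 libraries, 90 genes had a higher correlation than 0.95 with Alas2 and 340 with Alas1, and these values are a description.

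The other genes of heme metabolism were taken from lists by role, of which 58 of 61 genes were tested, Flvcr2, Slc46a1 and Ppargc1a being too low. With the CHD4-APR peptide 9 were higher and 24 were lower at an FDR under 0.05, and 25 did not pass, where 20.4% of all genes were higher and 17.8% lower. Their median log2 fold change was -0.13. After the correction for length and GC content 5 were higher and 15 were lower, beside 11.8% and 16.2% of all genes, and 14 of the 58 changed sign.

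Of 16 transporters of porphyrins, heme and their mitochondrial partners, 3 were higher and 7 were lower, beside 20.4% and 17.8% of all genes. After the correction 2 were higher and 3 lower, beside 11.8% and 16.2% of all genes. Flvcr1, a heme exporter, rose from 42.6 ± 4.31 to 53.4 ± 2.76 normalized CPM (SD, n = 3), a log2 fold change of 0.33 (FDR 0.00123 by edgeR), and Abcg2, an exporter of porphyrins at the cell surface, rose by 0.23 on the log2 scale (FDR 4.83e-04). After the correction Flvcr1 still passed (0.20, FDR 0.0150), and Abcg2 passed as lower (-0.11, FDR 0.0392). Tmem14c, a transporter of the mitochondrial inner membrane needed for porphyrin entry, fell from 1452 ± 30.9 to 1212 ± 37.8 normalized CPM (SD, n = 3), at a log2 fold change of -0.26 (FDR 1.74e-04 by edgeR), and passed under every alternative run. Slc25a39 (-0.25), a carrier of glutathione into mitochondria, and Tspo (-0.24), a protein of the outer mitochondrial membrane, were also lower, but not after the correction. Abcb10, a transporter of the inner membrane needed for heme synthesis (0.073, FDR 0.213), and Slc25a37, the mitochondrial iron importer mitoferrin (0.093, FDR 0.361), did not pass, although Abcb10 passed as higher after the correction with all exons as the length (0.13, FDR 0.0263) and not with the longest transcript (FDR 0.168).

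Among 11 tested genes of ALAS control and turnover, 4 were higher and 3 were lower, beside 20.4% and 17.8% of all genes. After the correction 3 were higher and 2 lower, beside 11.8% and 16.2% of all genes. Ireb2 encodes the iron regulatory protein that binds, among others, the Alas2 transcript, and rose from 53.8 ± 3.61 to 79.2 ± 0.639 normalized CPM (SD, n = 3), a log2 fold change of 0.56 (FDR 1.64e-06 by edgeR). It was 0.19 after the correction and still passed (FDR 0.00238). Bach1, a heme-sensing repressor, rose by 0.39 (FDR 4.32e-05), and Hif1a, the oxygen-regulated factor, by 0.80 (FDR 2.07e-06), both also after the correction. Clpx and Clpp, the unfoldase and the peptidase of a mitochondrial protease that acts on ALAS, went in opposite directions, at 0.15 (FDR 0.0132) and -0.35 (FDR 9.70e-04). Neither passed after the correction, nor did the protease gene Lonp1 (-0.17 before it), which passed with the longest transcript as the length (FDR 0.0128), and Clpx did not pass without CHD4-APR replicate 2 (FDR 0.0738). The 2 genes lower after the correction, named here after their values were seen, were Eif2ak1, the heme-regulated kinase of translation (-0.14 before it, FDR 0.0152, and -0.20 after it, FDR 0.00116), and Nrf1, a factor for genes of mitochondrial function (-0.11, FDR 0.0918, and -0.35, FDR 4.22e-05).

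Of the 4 genes of heme breakdown, 2 passed as lower, where 17.8% of all genes did. After the correction 2 passed as lower as well, Blvrb and Blvra (FDR 0.0175), where 16.2% of all genes did. Hmox2 did not pass then (FDR 0.220), and Hmox1 was at 0.0014. Blvrb, which encodes a biliverdin reductase abundant in red cells, fell from 1544 ± 125 to 1240 ± 28.9 normalized CPM (SD, n = 3), a log2 fold change of -0.32 (FDR 2.06e-04 by edgeR), and passed under every alternative run. Hmox2 was lower by edgeR (FDR 0.0434), but missed the threshold with every library left out except CTRL replicate 2. Hmox1, the inducible heme oxygenase, had 27.5 ± 3.60 and 25.1 ± 2.17 normalized CPM (SD, n = 3) and did not pass (log2 fold change -0.13, FDR 0.251). Without CTRL replicate 1, its highest library, the value was -0.019 (FDR 0.879).

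Of 14 genes of iron-sulfur cluster assembly, which makes the cluster that FECH carries, 0 were higher and 8 were lower by edgeR's quasi-likelihood test. Among all genes 20.4% were higher and 17.8% were lower. After the correction 0 of the 14 were higher and 5 were lower, beside 11.8% and 16.2% of all genes. Among these 5 was Isca1 (-0.11, FDR 0.030), which had not passed before the correction, while Hscb, Lyrm4, Fdxr and Bola3 no longer passed. Glrx5, a mitochondrial glutaredoxin, fell from 933 ± 27.5 to 785 ± 13.6 normalized CPM (SD, n = 3), a log2 fold change of -0.25 (FDR 2.20e-04 by edgeR). The scaffold gene Iscu (-0.25), the cochaperone gene Hscb (-0.24) and Isca2 (-0.22) were lower as well. After the correction Iscu passed at an FDR of 0.0489 but not with the longest transcript as the length (FDR 0.0845), whereas Isca2 and Glrx5 passed under every alternative run. Lyrm4 (-0.21, FDR 0.0345) missed the threshold with every library left out except CTRL replicate 2.

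In the supply of glycine and succinyl-CoA, 1 of 9 genes was higher and 3 were lower. These 4 calls are close to the 38.3% of all genes that passed. After the correction 0 were higher and 2 lower by edgeR, beside 11.8% and 16.2% of all genes. Suclg1, a subunit of succinyl-CoA ligase, had 52.8, 56.5 and 53.5 normalized CPM with the CTRL peptide and 47.2, 46.7 and 49.0 with the CHD4-APR peptide. It was lower (log2 fold change -0.19, edgeR FDR 0.00743) and passed under every alternative run. Shmt2, which makes glycine in mitochondria (-0.16), and Slc6a9, a glycine transporter of the cell surface (-0.15), were lower, and Dld (0.15) was higher. None of these 3 passed after the correction. Slc6a9 missed the threshold without CTRL replicate 1, CHD4-APR replicate 1 or CHD4-APR replicate 2, Shmt2 without CHD4-APR replicate 1, and Dld on removal of any library but CTRL replicate 2 and CHD4-APR replicate 1. Of 3 genes that use heme for cytochromes, 1 was higher and 0 were lower, beside 20.4% and 17.8% of all genes. Hccs, which attaches heme to cytochrome c, was higher by 0.42 (FDR 4.48e-04 by edgeR). It did not pass after the correction (FDR 0.0877), but did with the longest transcript as the length (0.19, FDR 0.0399). Cox10 (FDR 0.241) and Cox15 (FDR 0.717) did not pass by edgeR.

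**Figure D5:**
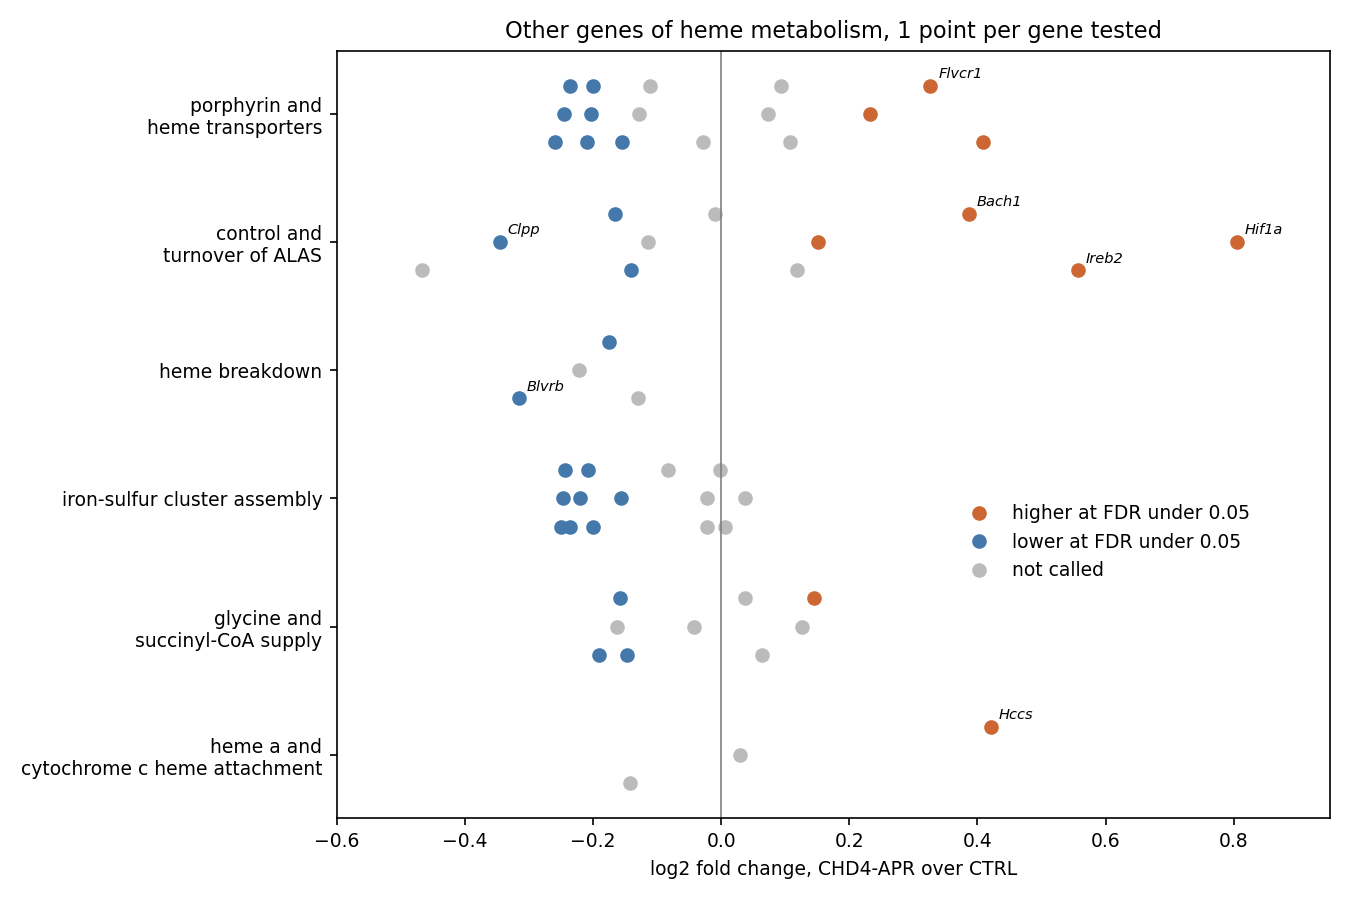
Log2 fold change (CHD4-APR over CTRL, horizontal axis) of the tested genes in 6 lists of heme metabolism, with 1 point per gene, orange for higher and blue for lower at an FDR under 0.05 and gray for the rest. The 8 called genes of iron-sulfur assembly all lie below 0, and Hif1a (0.80), Ireb2 (0.56) and Hccs (0.42) lie farthest above it.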

How the data were processed

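RNA from 2 groups of 3 libraries, the CTRL and the CHD4-APR peptide, was analysed from the gene counts. Before deposit, the authors removed adaptors (Cutadapt), mapped the reads to GRCm38 (STAR 2.7.10a) and counted them per gene (featureCounts), so the deposited counts are not normalized. The strand setting and the treatment of reads matching several genes are not given in the sources used here. Left out were 2 further columns of the table, whose names fit no sample.

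Symbols, exons and transcript GC content were taken from GENCODE M21 on GRCm38, which named 48349 of 48709 genes. Genes passing filterByExpr in edgeR 4.0.16 (R 4.3.3) were scaled by TMM and compared by the quasi-likelihood F-test, with Benjamini-Hochberg adjustment over all 12722 genes tested (FDR, threshold 0.05). Standard errors and 95% intervals were derived from the F statistic, log2 CPM used a prior count of 2, and Pearson correlations were taken over the 6 libraries. The alternatives were DESeq2 1.42.0, limma-voom 3.58.1, other scalings and filters, an FDR of 0.01, removal of hemoglobin genes, a replicate block, a correction in which the trend of each library's log2 CPM on exonic length and GC content (mgcv 1.9.3) served as offsets, and each library left out. The same correction with the longest transcript was added after seeing the data. The main edgeR fit, DESeq2, limma-voom and the correction with all exons as the length were tested on simulated data. The other procedures were not. Named are the 9 members, up to 6 called genes with the largest changes in each related list, and a few related genes in any case. Some genes that this rule names are not reported here. The members, lists and tests were chosen with earlier results of these data known. Promoters are those of RefSeq on GRCm38.p6.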

Additional observations from a re-analysis of the deposited data

How the results depend on the processing

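Across 19 alternatives run on each of the 9 genes, 147 of 171 values kept their direction and their side of the threshold, and Cpox and Alas1 did so in all, with log2 fold changes of 0.59 to 0.79 for Cpox. The number of genes called higher was 1. It was 2 with scaling by total counts, where Fech passed, and 2 with the longest transcript in the length and GC correction, where Urod passed. Of all genes tested, 2601 were higher in the main fit, 2959 with total counts and 1363 with the longest transcript. The number lower was 3, and from 2 (without CHD4-APR replicate 2) to 5 on removal of single libraries, the most without CTRL replicate 2. Of all genes, 2270 were lower in the main fit, 1528 without CHD4-APR replicate 2 and 2315 without CTRL replicate 2. The median of -0.12 was -0.072 with total counts, -0.070 with the length and GC correction, -0.071 with a replicate block as well, and -0.059 with the longest transcript. The median over all genes tested was -0.012 in the main fit and 0.033 with total counts. It was -0.024 with the correction, -0.024 with the block as well and -0.021 with the longest transcript. With single libraries removed the median of the 9 genes lay between -0.14 and -0.078, the latter without CTRL replicate 1. Related genes numbered 9 higher and 24 lower. There were 12 lower at an FDR under 0.01 and 13 lower with total counts, where 1308 and 1474 of all genes were lower instead of 2270. There were 5 higher and 15 lower with the correction, where 1500 and 2065 of all genes were. With the block as well 5 were higher, where 1699 of all genes were. With the longest transcript 5 were higher and 12 lower, where 1363 and 1823 of all genes were. When single libraries were removed, between 13 and 26 were lower and between 7 and 11 higher. The fewest were lower without CHD4-APR replicate 1, where 1655 of all genes were lower. Among the 9 genes and the related genes followed through every alternative, log2 fold changes that turned sign under the correction, with the block as well and with the longest transcript were those of Alas2 (0.015, 0.015 and 0.017), Urod (0.089, 0.089 and 0.11), Fech (-0.22, -0.21 and -0.19), Abcg2 (-0.11, -0.11 and -0.14), Dld (-0.048, -0.048 and -0.018) and Hmox1 (0.0014, 0.0025 and 0.0049). Slc25a37 turned to -0.077 with the longest transcript and ranged from -0.0039 without CTRL replicate 1 to 0.17 without CHD4-APR replicate 1, and Urod to 0.0088 with total counts. The ratio of Alas2 to Alas1 lay between -0.023 and 0.040 on the log2 scale with each library left out. The cause of these changes was not tested. Libraries with the same replicate number deviated from their group means with correlations of 0.070, 0.055 and -0.035. CHD4-APR replicates 1 and 2 correlated best with the CTRL library of the same number, and CHD4-APR replicate 3 with CTRL replicate 2. Such low values do not show that the numbers pair the libraries, and they cannot exclude it. With the replicate block 4 of the 9 genes were lower instead of 3, since Ppox passed. Of the related genes 10 were higher and 25 lower, where 2739 and 2475 of all genes were. The mean of the paired differences in the log2 ratio of Alas2 to Alas1 was 0.012. With 3 libraries per group and a biological coefficient of variation of 0.0518, the interval for Urod still allowed -0.12 to 0.051 on the log2 scale.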
